A study of Mus musculus with 6 samples.

Results

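Bone marrow-derived macrophages (BMMs) of the mouse were compared after culture with RANKL and after culture without it, and the comparison was read over all genes that passed a level filter. The tested genes are those of the deposited table with at least 0.5 FPKM (the fragment count of a gene, scaled to its exon length and to the mapped reads of the library) in at least 2 of the 6 libraries of the series, which gave 11905 of 24940 genes. Cells of 2 libraries received RANKL at 100 ng/mL, and cells of 2 libraries received no RANKL. M-CSF was present at 30 ng/mL in both groups. The remaining 2 libraries, from cells given RANKL together with LEA (an ethyl acetate fraction of an aqueous shiitake mushroom extract, 10 µg/mL), entered the level filter, through which they alone brought in 162 of the tested genes, and the estimate of the spread between libraries of 1 condition. The sample labels name C57BL/6 mice aged 6 to 8 weeks, whereas the methods name male ICR mice. The time of harvest is not given in the labels or methods, nor is it stated if libraries of 1 group stem from separate mice or cultures, so a p-value here reflects no more than how far these samples lie apart, which can be technical variation.

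RANKL is the cytokine that turns macrophage precursors into osteoclasts, the cells that resorb bone. It binds the receptor RANK, whose adaptors of the TRAF family switch on NF-κB, AP-1 and, later, the factor NFATc1. The precursors then stop dividing, fuse into cells with many nuclei, seal a patch of bone with a ring of actin-rich podosomes and release acid and proteases into the closed space. M-CSF keeps precursors and osteoclasts alive, and cells given M-CSF alone stay macrophages, which take up debris, lipids, iron and microbes.

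Depth was even between the groups. The mapped reads, read from the step between low values, numbered 47734670 and 46382553 in the RANKL libraries and 47729317 and 48298485 in the libraries without RANKL. Across genes, the log2 levels of the 2 libraries of a group had a Pearson correlation of 0.987 with RANKL and 0.988 without RANKL, where genes are not independent replicates. The ribosomal RNA precursor Rn45s took 3.69% and 4.29% of the summed FPKM with RANKL, and 3.70% and 2.97% without RANKL. The 12 osteoclast markers summed to 6189 and 5346 FPKM in the RANKL libraries, against 82.9 and 81.5 FPKM in the libraries without RANKL, and the 12 macrophage markers summed to 5403 and 4584 FPKM with RANKL, against 10817 and 14627 FPKM without RANKL. All 12 macrophage markers passed the filter, which any 2 libraries can satisfy. Without RANKL the macrophage markers summed far above the osteoclast markers, so the label of the cells fits these libraries. With RANKL the osteoclast markers had the larger sum. Lyz2 made up most of the macrophage sum in all 4 libraries, and Acp5 and Mmp9 together most of the osteoclast sum with RANKL. Fewer macrophages and less of the macrophage marker RNAs per cell cannot be told apart in bulk libraries. Other cell types left few traces. No B-cell marker of 10 and no mast cell marker of 10 passed the filter, nor did 13 of 14 T and NK cell markers, and 5 of the B-cell and 7 of the mast cell markers were at 0 in all 4 libraries. The exception was Cd5, a surface protein best known from T and B cells, which rose, at 3.18 and 2.42 FPKM with RANKL and 0.071 and 0.01 FPKM without RANKL. Of 12 neutrophil markers, Mmp8 and S100a8 passed the filter and both fell, and the 12 together summed to 1.29 and 1.43 FPKM with RANKL, against 6.14 and 7.51 FPKM without RANKL. The 16 osteoblast and stroma markers, of which 3 passed the filter, summed to 4.19 and 4.38 FPKM with RANKL, against 7.52 and 7.82 FPKM without RANKL, and the 10 endothelial markers, of which 3 passed, to 4.66 and 4.47 FPKM with RANKL, against 2.61 and 3.24 FPKM without RANKL. Of 10 dendritic cell markers, 3 passed, and the list summed to 10.3 and 11.8 FPKM with RANKL, against 8.76 and 9.80 FPKM without RANKL. Of the erythroid and megakaryocyte markers, Pf4 alone passed, a gene that macrophages also express. The part of these traces in the results was not tested.

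With RANKL, 2125 genes were higher and another 2125 lower, each 17.8% of the genes tested, where a call needed an adjusted p below 0.05 by limma and a difference of 1.5-fold or more. The median log2 fold change of all tested genes was 0.00. Counts of called members in the gene lists below are to be read beside the 17.8% of all genes in each direction. The counts were equal at this limit but not at larger folds. At 4-fold or more, 459 genes were higher and 376 lower, at 8-fold or more 215 and 122, and at 32-fold or more 69 and 7. These folds are on the scale of log2(FPKM + 0.1), which understates the change of genes with low values. Among the 15 largest increases of abundant genes with reads in every library, with log2 fold changes between 6.26 and 8.04, were those of Ocstamp, Slc9b2, Akap6, Acp5, Mmp9, Siglec15, Spns2, Atp6v0d2, Src, Cyp2s1, Lad1, Tm4sf19, Mmp14 and Rasgrp1. In all called genes both RANKL libraries lay on the same side of both libraries without RANKL, which a call with 2 libraries a group nearly requires and which held for 8927 of the 11905 tested genes.

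**Figure D1:**
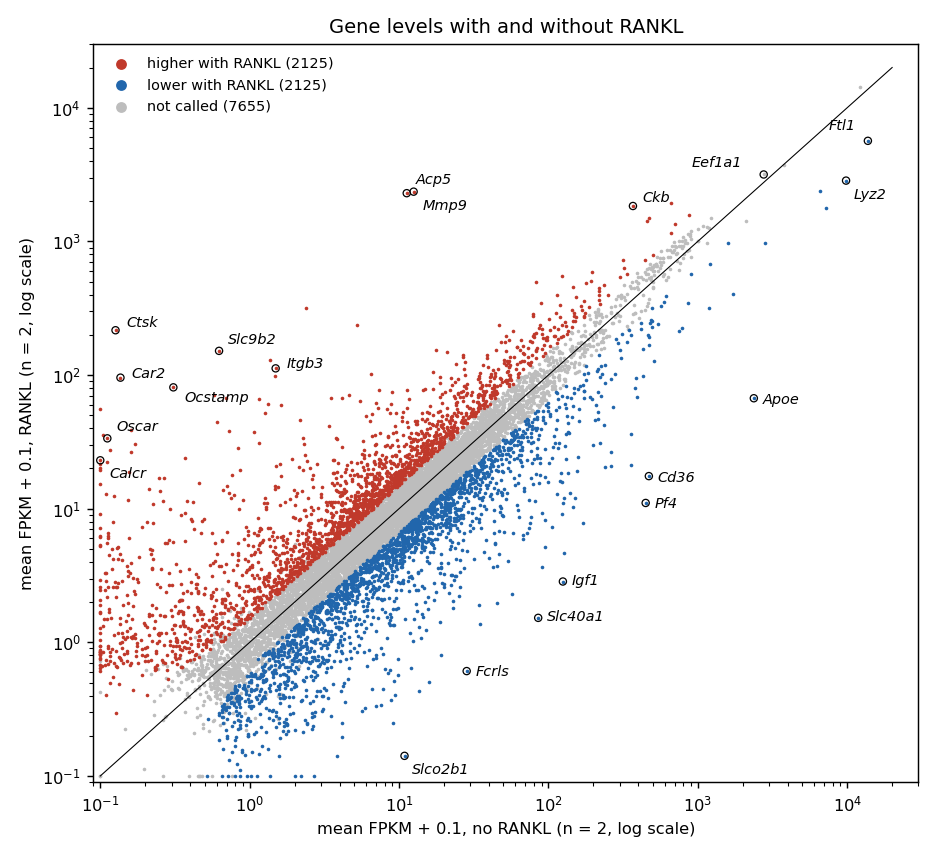
Mean FPKM + 0.1 of each of the 11905 genes with RANKL (vertical axis) against no RANKL (horizontal axis), both on log scales, with 1 point per gene and the line of equal levels. Genes far above the line include Ctsk, Acp5 and Mmp9 and genes far below it include Slco2b1, Slc40a1 and Apoe, and more genes lie near 0 without RANKL than with it.

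The direction of the difference at the low end was counted by level. With RANKL, 84 genes had at least 1 FPKM in both libraries while they stayed under 0.1 FPKM in both libraries without RANKL, and 9 genes showed the opposite. The counts were 58 and 5 with a lower limit of 0.05 FPKM, and 61 and 4 with an upper limit of 2 FPKM. Among the 10 of the 84 with the highest levels were Ctsk (cathepsin K, the collagen-degrading protease of osteoclasts), Car2 (carbonic anhydrase II, which supplies protons for the pump), Mt3 (a metallothionein), Cd200 (a surface ligand that restrains myeloid cells), Oscar (an osteoclast receptor for collagen), Siglec15 (a sialic acid receptor), Akap6 (an anchor for protein kinase A), Spns2 (the exporter of sphingosine 1-phosphate) and Calcr (the calcitonin receptor). Calcr had 24.0 and 21.9 FPKM in the RANKL libraries and no read in either library without RANKL. Against a floor of 3 reads per library, its mean with RANKL was at least 1270-fold higher. The mean of Mt3, also without a read, was at least 474-fold higher. Cd200 had 4169 and 3418 reads with RANKL and 1 and 0 reads without RANKL. The genes lost below 0.1 FPKM with RANKL were low without it as well. The highest of them was Slco2b1, an organic anion transporter, at 0.034 and 0.049 FPKM with RANKL and 9.73 and 11.8 FPKM without RANKL. Tpbgl followed at 0.069 and 0.014 FPKM with RANKL and 3.84 and 3.67 FPKM without RANKL. The list also held Rasgrp3, an activator of Ras, and Il1rl1, the receptor of interleukin-33, at 0.059 and 0.061 FPKM with RANKL and 1.13 and 1.3 FPKM without RANKL.

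The called genes carried different shares of the message pool in the 2 groups, in a direction that the calls themselves fix. Genes called higher made up 23.4% and 22.3% of the summed FPKM in the RANKL libraries, against 9.09% and 9.16% in the libraries without RANKL. Genes called lower made up 11.7% and 11.3% with RANKL, against 29.8% and 30.3% without RANKL. Ferritin light chain (Ftl1), ferritin heavy chain (Fth1) and lysozyme (Lyz2) stood among the 10 highest genes without RANKL, and all 3 fell. Ftl1 was at 5759.9 and 5551 FPKM with RANKL and at 13181 and 14338 FPKM without RANKL, and lost its call when no level filter was applied (limma adjusted p = 0.059). Lyz2 was at 3162 and 2539 FPKM with RANKL and at 8083 and 11578 FPKM without RANKL. Mmp9, Acp5, the intermediate filament gene Vim and the creatine kinase Ckb entered the 10 highest with RANKL. Reads of the ferritin genes and of other genes with many processed pseudogenes may be shared with those copies.

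The starts of 4 genes that stood at the ends of the comparison are shown, for Acp5 and Ctsk, which encode enzymes of the resorption pit, and for Apoe and Pf4, which encode secreted macrophage proteins. Each sequence covers the 250 bases before the start of the transcript, 5′ to 3′ on the gene's own strand, from RefSeq on GRCm38.p6, and lies at chr9:22130599-22130848 (minus strand) for Acp5, chr3:95498960-95499209 (plus strand) for Ctsk, chr7:19698622-19698871 (minus strand) for Apoe and chr5:90772185-90772434 (plus strand) for Pf4. Capitals mark matches, on either strand, to 9 short motifs. These were AP-1 (TGANTCA, in 6.7% of all RefSeq windows of this length), CRE (TGACGTCA, 1.5%), the E-box CACGTG (6.0%), the ERR element (TCAAGGTCA, 0.4%), PU.1 (GAGGAAGT, 2.4%), E2F (GCGGGAAA, 0.9%), the CCAAT box (33.8%), an ISRE-like motif (GAAANNGAA, 7.1%) and the antioxidant response element (TGACNNNGC, 10.2%).
Acp5: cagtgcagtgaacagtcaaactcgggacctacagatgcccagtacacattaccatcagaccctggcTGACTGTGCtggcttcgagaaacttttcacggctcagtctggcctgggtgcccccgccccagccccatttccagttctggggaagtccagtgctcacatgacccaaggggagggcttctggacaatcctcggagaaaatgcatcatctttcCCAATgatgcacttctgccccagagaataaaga
Ctsk: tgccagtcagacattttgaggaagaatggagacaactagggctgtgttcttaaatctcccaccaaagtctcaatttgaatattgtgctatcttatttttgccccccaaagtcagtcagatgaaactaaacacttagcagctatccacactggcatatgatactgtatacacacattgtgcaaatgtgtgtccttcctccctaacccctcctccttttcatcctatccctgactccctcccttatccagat
Apoe: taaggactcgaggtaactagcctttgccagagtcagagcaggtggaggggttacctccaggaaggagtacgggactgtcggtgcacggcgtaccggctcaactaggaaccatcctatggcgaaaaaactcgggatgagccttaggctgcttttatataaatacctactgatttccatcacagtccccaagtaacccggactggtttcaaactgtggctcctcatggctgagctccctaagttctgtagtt
Pf4: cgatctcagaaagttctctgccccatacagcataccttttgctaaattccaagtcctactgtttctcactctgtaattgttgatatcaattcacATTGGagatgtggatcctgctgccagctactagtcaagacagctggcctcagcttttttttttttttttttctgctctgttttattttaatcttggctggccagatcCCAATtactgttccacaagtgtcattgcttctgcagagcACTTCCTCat
The Acp5 window held an antioxidant response element and a CCAAT box, the Pf4 window held 2 CCAAT boxes and a PU.1 motif, and the Ctsk and Apoe windows held none of the 9, and the marked matches do not overlap. A match is a string of letters and no evidence of binding. Windows that start where the deposited transcript starts were found for 68.9% of the tested genes, too few to compare motif shares between genes called higher and lower.

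The enzymes best known from bone resorption rose, Acp5 and Mmp9 into the 10 highest genes of the cells, while 9 other proteases and receptors of the same list fell. Acp5, which encodes the osteoclast enzyme TRAP, had 2568 and 2022 FPKM with RANKL, against 10.5 and 11.8 FPKM without RANKL (log2 fold change 7.66 ± 0.15 SE, adjusted p = 3.7e-08 by limma). Mmp9, a gelatinase, had 2456 and 2255 FPKM with RANKL, against 12.3 and 12.6 FPKM without RANKL. Ctsk had 236 and 196 FPKM with RANKL, against 0 and 0.053 FPKM without RANKL. In all 3 genes both RANKL libraries lay far above both libraries without RANKL. Mmp14, a membrane-bound metalloproteinase, rose too, with 135 and 123.2 FPKM with RANKL and 1.45 and 1.08 FPKM without RANKL. These were the 4 genes called higher of the 14 tested in the list of matrix-degrading proteases and TRAP, in which 9 were lower. The lowered members included Plau, the urokinase plasminogen activator, at 11.1 and 6.99 FPKM with RANKL and 111 and 135 FPKM without RANKL, and the sheddase Adam8 at 107 and 87.8 FPKM with RANKL and 418 and 441 FPKM without RANKL. The lysosomal cathepsins B and D, Ctsb (named after its values were seen) and Ctsd, fell by 1.90 and 1.53 on the log2 scale. Part of the Ctsb exons, 12.8%, overlaps Fdft1 on the other strand, and the counting did not use strand.

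Most genes of acid secretion rose. Of 20 tested genes of the vacuolar proton pump, 14 were higher, 3 lower and 3 not called, with a median log2 fold change of 1.39. Atp6v0d2, a pump subunit known from osteoclasts, had 325 and 307 FPKM with RANKL, against 2.32 and 2.23 FPKM without RANKL (log2 fold change 7.06 ± 0.10 SE, adjusted p = 1.2e-08 by limma). Its more general relative Atp6v0d1 did not fall and was not called (log2 fold change 0.58). Isoforms of the large membrane subunit went apart. Tcirg1, the osteoclast form, had 370.0 and 316 FPKM with RANKL, against 87.1 and 90.7 FPKM without RANKL, while Atp6v0a1, a form widespread in other cells, had 8.62 and 9.0 FPKM with RANKL, against 52.4 and 45.3 FPKM without RANKL. The cytosolic subunit gene Atp6v1d rose by 3.12 on the log2 scale. Of 14 genes that move acid, chloride and bicarbonate at the resorption pit, 8 were higher (57.1%) and 3 lower (21.4%), beside 17.8% of all genes. Slc9b2, a sodium/proton exchanger, had 155 and 149 FPKM with RANKL, against 0.574 and 0.474 FPKM without RANKL. Clcn7, the chloride/proton exchanger of the ruffled border, had 71.5 and 60.9 FPKM with RANKL, against 11.3 and 11.9 FPKM without RANKL. Snx10, a sorting nexin needed for the ruffled border, and the bicarbonate exchanger Slc4a2 rose by 2.83 and 2.31 on the log2 scale, and 13.7% of the Slc4a2 exon bases overlap Fastk on the other strand. The chloride channel protein Clic1 was among the lowered members, at 225 and 209.6 FPKM with RANKL and 312 and 386 FPKM without RANKL, and its call was lost when no RANKL replicate 2 was left out (log2 fold change −0.52).

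Genes of cell fusion and of attachment were called in both directions. Of 16 fusion genes, 7 were higher (43.8%) and 4 lower (25.0%), the latter not far from the 17.8% of all genes. Ocstamp and Dcstamp, the membrane proteins without which osteoclast precursors do not fuse, were at 84.8 and 76.7 FPKM and 106 and 89.6 FPKM with RANKL, and at 0.226 and 0.191 FPKM and 1.42 and 1.33 FPKM without RANKL. The tetraspanin Cd81 fell by 2.15 on the log2 scale, whereas Cd9, a tetraspanin of the same list, had 182 and 165 FPKM with RANKL and 146 and 181 FPKM without RANKL and its groups overlapped. Itgb3, the β chain of the vitronectin receptor with which osteoclasts hold bone, had 110.2 and 114 FPKM with RANKL, against 1.33 and 1.46 FPKM without RANKL. Itga2, a collagen receptor chain, had 4.83 and 4.97 FPKM with RANKL and 0.03 and 0.009 FPKM without RANKL. Itgb5, another β partner of the αv chain, went the opposite way, with 19.2 and 17.2 FPKM with RANKL and 81.2 and 84.3 FPKM without RANKL.

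**Figure D2:**
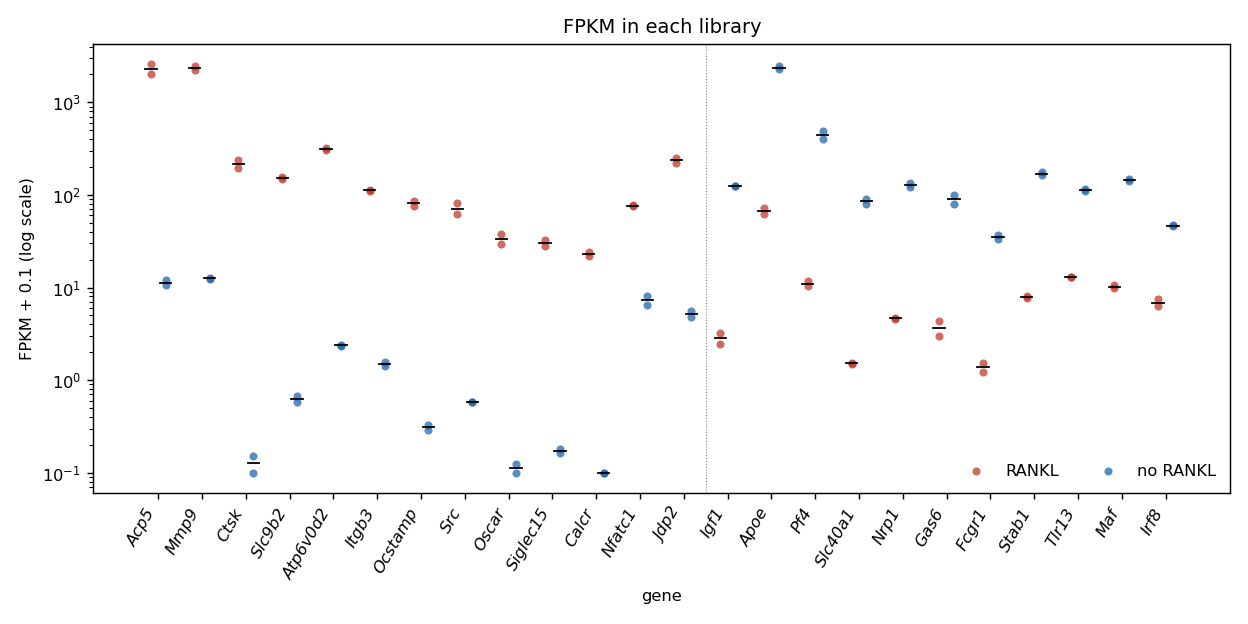
FPKM + 0.1 of 24 genes on a log scale, with 1 point per library, RANKL to the left and no RANKL to the right within each gene, and a bar at the mean (n = 2 each). In the 13 genes left of the dotted line both RANKL libraries lie above both libraries without RANKL, and in the 11 genes to the right of it both lie below.

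Of 37 genes of podosomes and the actin ring, 15 were higher (40.5%), 4 lower (10.8%) and 18 not called, with a median log2 fold change of 0.15. Src, the kinase that osteoclasts need to form a ruffled border, had 80.8 and 61.6 FPKM with RANKL, against 0.479 and 0.484 FPKM without RANKL (log2 fold change 6.92 ± 0.14 SE, adjusted p = 3.8e-08 by limma). Dock5, an activator of Rac, had 66.2 and 69.0 FPKM with RANKL, against 4.33 and 3.76 FPKM without RANKL. Cortactin (Cttn) and the Src substrate Bcar1, both scarce without RANKL, reached 9.54 and 8.12 FPKM and 4.18 and 3.88 FPKM with RANKL, against 0.237 and 0.261 FPKM and 0.04 and 0.04 FPKM without RANKL. Vinculin (Vcl) rose by 2.48 on the log2 scale, and 25.5% of its exon bases overlap Ap3m1 on the other strand. Ptk2b, the adhesion kinase PYK2, and Evl, which elongates actin filaments, fell by 0.91 and 1.97 on the log2 scale.

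Tnfrsf11a, which encodes RANK, had 69.9 and 62.3 FPKM with RANKL, against 46.9 and 45.3 FPKM without RANKL, a difference under the limit of 1.5-fold (log2 fold change 0.52 ± 0.10 SE, adjusted p = 3.7e-03 by limma). Of 19 genes of RANK and TNF receptor signalling, 8 were higher and 1 lower. The adaptor Traf1 had 41.4 and 33.0 FPKM with RANKL, against 0.899 and 1.04 FPKM without RANKL, and the ubiquitin ligase Birc3 had 58.5 and 52.5 FPKM with RANKL, against 7.99 and 8.3 FPKM without RANKL. In the NF-κB list, 8 of 16 were higher, with Nfkb2 and Relb, the subunits of the alternative pathway, at log2 fold changes of 2.21 and 1.75. The kinase Ikbke was the 1 member lower, at 7.77 and 6.44 FPKM with RANKL and 35.2 and 35.3 FPKM without RANKL. Rela, the p65 subunit, had 26.2 and 22.5 FPKM with RANKL and 26.4 and 27.2 FPKM without RANKL and was not called. In the costimulatory list 6 of 21 were higher and 5 lower, not far from the 17.8% of all genes in each direction. Oscar and Siglec15 reached 37.6 and 29.4 FPKM and 32.4 and 28.2 FPKM with RANKL, against 0 and 0.023 FPKM and 0.062 and 0.081 FPKM without RANKL. Trem2, a lipid receptor that signals through the adaptor Tyrobp (DAP12), had 46.4 and 38.6 FPKM with RANKL, against 204 and 264 FPKM without RANKL. Tyrobp itself had 663 and 562 FPKM with RANKL and 634 and 854 FPKM without RANKL, with overlapping groups, and the related Fc receptor γ chain, Fcer1g, fell by 1.21 on the log2 scale.

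Of 27 factors known to drive osteoclast genes, 13 were higher and 9 lower, and of 15 repressors of osteoclast formation, 2 were higher and 9 lower. Nfatc1 had 75.1 and 78.1 FPKM with RANKL, against 7.94 and 6.44 FPKM without RANKL. The largest increase among the activators was that of Jdp2, an AP-1 family factor, at 252 and 220.3 FPKM with RANKL and 4.74 and 5.46 FPKM without RANKL (log2 fold change 5.51 ± 0.12 SE, adjusted p = 4.3e-08 by limma). Fosl2, of the same family, had 102 and 103 FPKM with RANKL, against 6.65 and 6.12 FPKM without RANKL. Bhlhe40 and Prdm1, both repressors of transcription listed here because they favour osteoclasts, rose by 5.19 and 3.28 on the log2 scale. Mef2c, of the MEF2 family, fell to 2.18 and 2.07 FPKM with RANKL, against 24.5 and 25.4 FPKM without RANKL, and the myeloid factor Cebpa fell by 1.22 on the log2 scale. On the side of the repressors, the macrophage factor Maf had 10.5 and 9.8 FPKM with RANKL, against 150.1 and 139.6 FPKM without RANKL. Irf8, which blocks NFATc1, had 7.36 and 6.14 FPKM with RANKL, against 45.6 and 46.9 FPKM without RANKL. Rbpj, the DNA-binding partner of Notch, fell by 1.64 on the log2 scale. Klf4 was 1 of the 2 repressors that rose, at 4.78 and 4.74 FPKM with RANKL and 1.73 and 1.96 FPKM without RANKL. Spi1, which encodes PU.1, rose by 0.73 on the log2 scale, unlike 9 of the other 11 macrophage markers, which fell.

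Of 13 tested genes, from 19 listed, for signals that osteoclasts send to bone-forming cells, 9 were higher and 3 lower, with a median log2 fold change of 1.54. Their summed level was lower with RANKL, at 380.4 and 360.1 FPKM, against 470.4 and 433.5 FPKM without RANKL. Sphk1, the kinase that makes sphingosine 1-phosphate, had 6.64 and 5.74 FPKM with RANKL, against 0.024 and 0 FPKM without RANKL. The cytokine Lif had 2.31 and 1.83 FPKM with RANKL, against 0 and 0.021 FPKM without RANKL, and the ephrin Efnb2 had 1.81 and 1.78 FPKM with RANKL, against 0.068 and 0.014 FPKM without RANKL. Sphk1, Lif and Efnb2 passed the filter of 0.5 FPKM only through libraries with RANKL, so they could hardly be called lower. Spns2, the exporter of sphingosine 1-phosphate, stood outside that list and had 28.5 and 24.8 FPKM with RANKL, against 0.078 and 0.045 FPKM without RANKL. The semaphorin Sema4d, which restrains osteoblasts, was already present without RANKL, at 139 and 132 FPKM with RANKL and 55.98 and 54.6 FPKM without RANKL, and Sema7a, which is not in the list, reached 6.83 and 4.97 FPKM with RANKL, against 0.013 and 0.013 FPKM without RANKL. The growth factor Igf1 changed the other way, with 2.38 and 3.13 FPKM with RANKL, against 126 and 124 FPKM without RANKL (log2 fold change −5.47 ± 0.14 SE, adjusted p = 9.1e-08 by limma). Tgfb1 was lower as well, at 117 and 118 FPKM with RANKL and 196 and 162 FPKM without RANKL. Its call was lost on voom of recovered reads (log2 fold change −0.58) and when RANKL replicate 1, RANKL replicate 2 or no RANKL replicate 1 was left out.

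Several of the largest decreases were those of genes known from macrophages. Apoe, the lipid carrier, had 71.7 and 62.2 FPKM with RANKL, against 2268 and 2475 FPKM without RANKL. Slc40a1, the iron exporter ferroportin, had 1.41 and 1.44 FPKM with RANKL, against 80.5 and 90.2 FPKM without RANKL. Pf4, the chemokine platelet factor 4, had 11.6 and 10.3 FPKM with RANKL, against 400.3 and 495 FPKM without RANKL (log2 fold change −5.34 ± 0.14 SE, adjusted p = 1.2e-07 by limma). In these 3 genes both RANKL libraries lay below both libraries without RANKL, as in every gene called lower. Gas6, the bridge between dying cells and the engulfment receptors, had 4.2 and 2.9 FPKM with RANKL, against 80.01 and 100.2 FPKM without RANKL. Fcrls, an Fc receptor-like protein of macrophages, had 0.497 and 0.522 FPKM with RANKL, against 26.8 and 29.8 FPKM without RANKL. Fcgr1, the high-affinity receptor for IgG, had 1.14 and 1.43 FPKM with RANKL, against 33.0 and 36.7 FPKM without RANKL. Also among the 15 largest decreases of abundant genes were the scavenger receptor Cd36, the chemokine Ccl4, cyclin D2 (Ccnd2), Ctla2b, a cathepsin inhibitor-like protein, Nxpe5, the coreceptor Nrp1 and the microRNA row Mir1903, all of whose bases lie in Nrp1 and cannot be told apart from it.

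Most called receptors for microbes and debris were lower. Of 23 Toll-like receptors and adaptors, 13 were lower and 0 higher. Tlr13, which senses bacterial ribosomal RNA, had 12.9 and 12.9 FPKM with RANKL, against 110.2 and 117 FPKM without RANKL. Cd14, the coreceptor for endotoxin, had 49.7 and 43.6 FPKM with RANKL, against 217 and 213 FPKM without RANKL, and Ly86, the MD-1 protein of the same system, fell by 2.66 on the log2 scale. The adaptor Myd88 had 27.3 and 23.7 FPKM with RANKL and 25.9 and 30.7 FPKM without RANKL and was not called, and 11.3% of its exon bases overlap Acaa1a on the other strand. Of 21 scavenger and lectin receptors, 13 were lower and 3 higher. Stab1, a receptor that clears modified proteins, had 8.03 and 7.52 FPKM with RANKL, against 176 and 164 FPKM without RANKL, and the mannose receptor Mrc1 had 6.27 and 6.28 FPKM with RANKL, against 59.7 and 74.9 FPKM without RANKL. The 3 raised members, among them Clec4a2 at 77.9 and 73.4 FPKM with RANKL and 34.4 and 41.7 FPKM without RANKL, all belong to the Clec4a lectins. Of 14 complement genes, 8 were lower and 3 higher. The receptor of C5a, C5ar1, had 8.4 and 7.99 FPKM with RANKL, against 88.5 and 101 FPKM without RANKL, and C3, the central complement protein, had 34.9 and 35.5 FPKM with RANKL, against 6.76 and 6.3 FPKM without RANKL. In the Ly6, Ms4a and Cd300 surface families, 16 of 20 were lower and 1 higher, but near-identical copies within the Cd300 family may share reads. Ms4a7 had 7.07 and 8.4 FPKM with RANKL, against 70.7 and 79.5 FPKM without RANKL.

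Of 11 purinergic and adenosine genes, 8 were lower and 1 higher. P2ry6, the receptor of UDP, had 16.0 and 14.8 FPKM with RANKL, against 82.1 and 89.8 FPKM without RANKL, whereas P2ry14, the receptor of UDP-glucose, had 10.7 and 9.56 FPKM with RANKL, against 1.09 and 1.3 FPKM without RANKL. In the Notch pathway, 7 of 12 were lower and 0 higher, and Notch1 had 1.28 and 1.3 FPKM with RANKL, against 9.13 and 7.83 FPKM without RANKL. Of 20 chemokines, 12 were lower and 5 higher, with a median log2 fold change of −2.65. Ccl4 had 0.48 and 0.329 FPKM with RANKL, against 13.6 and 18.2 FPKM without RANKL. Cxcl10, an interferon-induced chemokine, had 25.0 and 18.1 FPKM with RANKL, against 1.74 and 3.75 FPKM without RANKL, and Ccl9, which draws osteoclast precursors, had 469 and 477 FPKM with RANKL, against 220.0 and 251 FPKM without RANKL.

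**Figure D3:**
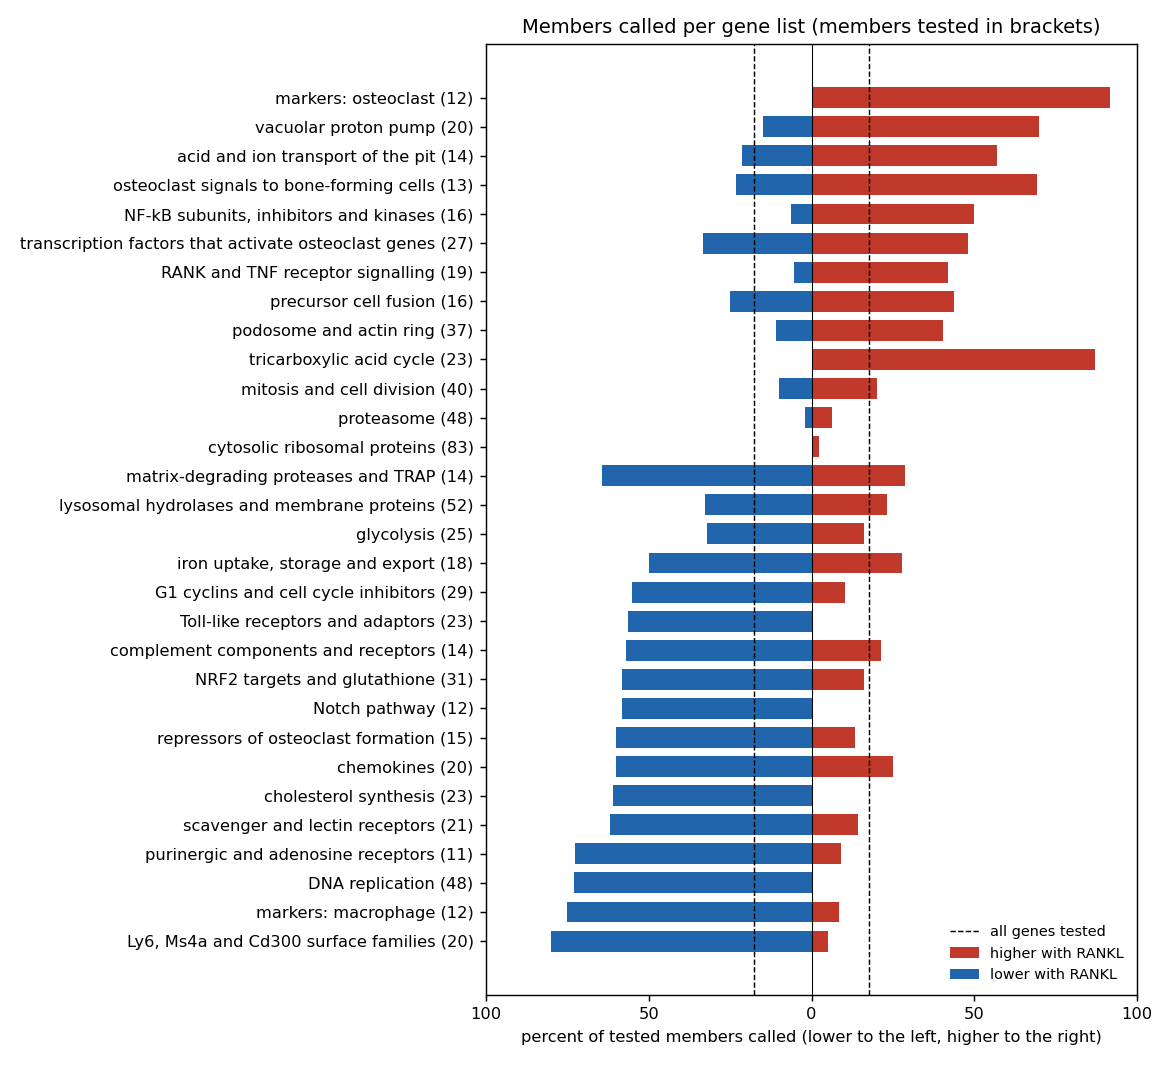
Percent of tested members called higher with RANKL (bars to the right) and lower with RANKL (bars to the left) for 30 gene lists, with the number tested in brackets and dashed lines at the 17.8% of all genes called in each direction. Of the lists plotted, which leave out the respiratory chain, osteoclast markers and the tricarboxylic acid cycle extend furthest to the right, the Ly6, Ms4a and Cd300 families, macrophage markers and DNA replication furthest to the left, and cytosolic ribosomal proteins and the proteasome stay inside the dashed lines.

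All called genes of the respiratory chain, the tricarboxylic acid cycle and fatty acid oxidation rose. In the respiratory chain, 25 of 37 subunits of complex I, all 14 genes of complexes II and III and cytochrome c, 12 of 13 genes of cytochrome c oxidase and 13 of 16 genes of ATP synthase were higher and 0 were lower. Cyc1, cytochrome c1 of complex III, had 201 and 194 FPKM with RANKL, against 49.8 and 54.2 FPKM without RANKL (log2 fold change 1.92 ± 0.10 SE, adjusted p = 2.5e-06 by limma). Atp5b, the catalytic β subunit of ATP synthase, had 766 and 693 FPKM with RANKL, against 297 and 329.8 FPKM without RANKL. Ndufv1 of complex I and Cox5b of cytochrome c oxidase rose by 1.23 and 0.92 on the log2 scale. In the tricarboxylic acid cycle with its pyruvate entry, 20 of 23 were higher and 0 lower, with the largest median of these lists, 1.48. Sdha, Sdhb, Sdhc and Sdhd belong both to this list and to that of complexes II and III. Idh3a, a subunit of isocitrate dehydrogenase, had 76.3 and 73.2 FPKM with RANKL, against 19.6 and 20.6 FPKM without RANKL. Fatty acid oxidation had 11 of 18 higher and 0 lower, and Acaa2, which takes its last step, rose by 1.38 on the log2 scale. Of 78 mitochondrial ribosomal proteins, 37 were higher and 0 lower. Mrps6 led them with 57.0 and 47.0 FPKM with RANKL, against 8.73 and 10.2 FPKM without RANKL, and 10.4% of its exon bases are shared with Slc5a3 on the same strand. The mitochondrial carriers were mixed, with 9 of 36 higher (25.0%), 4 lower (11.1%) and a median of 0.22, beside 17.8% of all genes in each direction. Ppargc1b (PGC-1β), a coactivator of mitochondrial genes that was named after its values were seen, had 19.8 and 19.0 FPKM with RANKL, against 0.961 and 0.551 FPKM without RANKL.

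Of 83 cytosolic ribosomal proteins, 2 were called, Rpl4 and Rpl23a, both higher, and the median log2 fold change was 0.33. Neither call held under quantile normalization. Summed over the list, the level was 53215 and 57098 FPKM with RANKL, against 40533 and 48010.5 FPKM without RANKL. Glycolysis had 8 of 25 lower and 4 higher, with a median of −0.26. Hk3, a hexokinase of myeloid cells, had 22.7 and 21.2 FPKM with RANKL, against 98.0 and 105 FPKM without RANKL, and Pkm, the pyruvate kinase gene (named after its values were seen), had 959 and 981 FPKM with RANKL, against 1632 and 1571 FPKM without RANKL. Gapdh had 745 and 775 FPKM with RANKL and 854 and 944 FPKM without RANKL and was not called. In the pentose phosphate pathway, 3 of 8 were lower and 0 higher, led by Pgd at 191 and 195 FPKM with RANKL and 461 and 478 FPKM without RANKL. Cholesterol synthesis had 14 of 23 lower and 0 higher. In the synthesis and desaturation of fatty acids, 6 of 17 were lower (35.3%) and 4 higher (23.5%), the latter not far from the 17.8% of all genes. The desaturase Fads2 had 1.39 and 1.5 FPKM with RANKL, against 13.97 and 14.8 FPKM without RANKL.

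**Figure D4:**
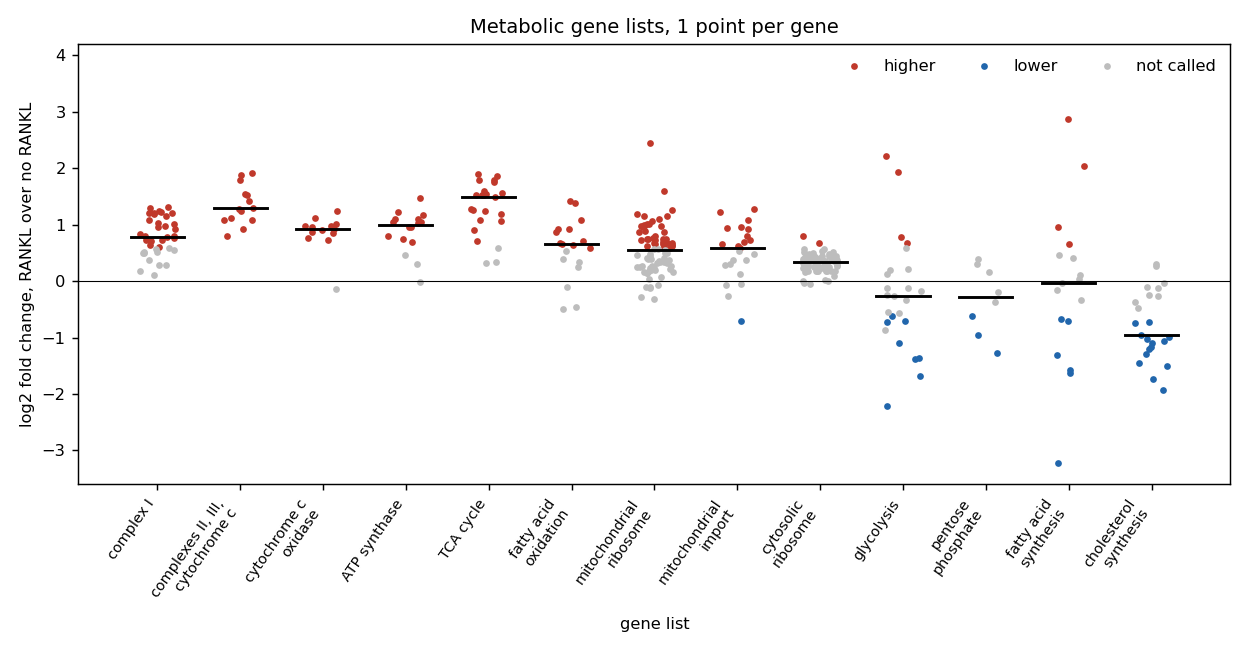
Log2 fold change of each tested member (1 point per gene, RANKL over no RANKL) of 13 metabolic gene lists, coloured by call, with a bar at the median. Medians run between 0.56 and 1.48 in the 8 mitochondrial lists plotted, which leave out the mitochondrial carriers, and lie at 0.33 in the cytosolic ribosome and between −0.95 and −0.03 in glycolysis, the pentose phosphate pathway and lipid synthesis.

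Of 6 creatine genes, the 4 higher were 3 kinases and the importer, and the 2 lower were the enzymes of synthesis. Ckb, the brain-type creatine kinase that is abundant in osteoclasts, had 1983 and 1698 FPKM with RANKL, against 367 and 369 FPKM without RANKL. Ckmt1, the kinase of mitochondria, had 23.7 and 16.5 FPKM with RANKL and no read without RANKL. Its mean with RANKL was at least 485-fold higher against the floor of 3 reads per library. Slc6a8, the creatine importer, had 55.8 and 50.5 FPKM with RANKL, against 11.1 and 9.86 FPKM without RANKL. Gatm, for the first step of synthesis, had 16.9 and 13.6 FPKM with RANKL, against 73.4 and 83.2 FPKM without RANKL, and Gamt, for the second, had 7.35 and 7.66 FPKM with RANKL, against 18.9 and 22.1 FPKM without RANKL. Of 28 amino acid transporters, 9 were higher (32.1%) and 8 lower (28.6%), beside 17.8% of all genes in each direction. Slc1a5, an importer of glutamine, was at 82.2 and 72.5 FPKM with RANKL and 21.6 and 22.1 FPKM without RANKL, and Slc7a8, an exchanger of neutral amino acids, at 16.3 and 15.7 FPKM with RANKL and 130.1 and 110.0 FPKM without RANKL.

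Of 18 iron genes, 9 were lower and 5 higher, and of 31 NRF2 targets and glutathione genes, 18 were lower and 5 higher. The ferritin genes and Hmox1, the haem-degrading enzyme, belong to both lists. Hmox1 had 28.9 and 24.1 FPKM with RANKL, against 252 and 272 FPKM without RANKL. Fth1 had 1788 and 1761 FPKM with RANKL, against 7211 and 7124 FPKM without RANKL (log2 fold change −2.01 ± 0.12 SE, adjusted p = 6.4e-06 by limma). Steap4, a metalloreductase, had the largest increase of the iron list, with 10.0 and 8.09 FPKM with RANKL and no read without RANKL. Its mean with RANKL was at least 454-fold higher against the floor.

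Of 52 lysosomal hydrolases and membrane proteins, 12 were higher (23.1%) and 17 lower (32.7%), with a median of −0.03, beside 17.8% of all genes in each direction. Igf2r, the large mannose 6-phosphate receptor that carries new hydrolases to lysosomes, had 52.5 and 51.0 FPKM with RANKL, against 1.11 and 1.21 FPKM without RANKL (log2 fold change 5.36 ± 0.12 SE, adjusted p = 5.9e-08 by limma). Gnptab, which begins the mannose 6-phosphate tag, had 80.5 and 76.2 FPKM with RANKL, against 17.3 and 16.3 FPKM without RANKL. Sort1, a sorting receptor that does not use this tag, had 1.53 and 1.37 FPKM with RANKL, against 7.56 and 8.78 FPKM without RANKL. Cathepsin C (Ctsc) was 1 of the lowered hydrolases, with 23.3 and 21.3 FPKM with RANKL and 62.0 and 68.1 FPKM without RANKL.

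Of 48 replication genes, 35 were lower and 0 higher, and in the mitotic list of 40, 8 rose and 4 fell, near the background of 17.8% in each direction. Lig1, the DNA ligase of the lagging strand, had 22.2 and 21.8 FPKM with RANKL, against 77.7 and 78.1 FPKM without RANKL. Ccnb2, a mitotic cyclin, had 37.6 and 31.3 FPKM with RANKL, against 10.1 and 13.1 FPKM without RANKL, and the centromere histone Cenpa had 34.2 and 29.6 FPKM with RANKL, against 12.49 and 13.9 FPKM without RANKL. The proliferation marker Mki67 was not called, with 58.4 and 62.3 FPKM with RANKL and 66.3 and 62.3 FPKM without RANKL. Among 29 G1 cyclins, E2F factors and cell cycle inhibitors, 16 were lower and 3 higher. Cyclin D1 (Ccnd1) had 33.2 and 28.9 FPKM with RANKL, against 222 and 224 FPKM without RANKL, and cyclin D2 (Ccnd2) had 0.316 and 0.355 FPKM with RANKL, against 14.9 and 12.05 FPKM without RANKL. The cell cycle inhibitor p21 (Cdkn1a) fell as well, with 57.5 and 52.8 FPKM with RANKL and 150.9 and 167 FPKM without RANKL. Among 16 genes of the BCL2 family, 7 were higher (43.8%) and 4 lower (25.0%), the latter not far from the 17.8% of all genes. Bcl2l1, the member with the largest decrease, which encodes the survival protein BCL-XL, had 4.09 and 3.06 FPKM with RANKL, against 41.1 and 44.4 FPKM without RANKL. The death-promoting members Bmf and Pmaip1 (NOXA) had 7.19 and 5.88 FPKM and 15.6 and 11.7 FPKM with RANKL, against 0.888 and 1.03 FPKM and 1.84 and 1.92 FPKM without RANKL. Members of both kinds were called in both directions. The survival genes Bcl2a1a, Mcl1 and Bcl2a1d rose by 4.44, 0.71 and 0.66 on the log2 scale, while Bcl2 had −2.32. The near-identical Bcl2a1b was not called (log2 fold change −0.24), and the Bcl2a1 copies may share reads. The death-promoting Bok and Bcl2l11 rose by 2.81 and 0.805, while Bid and Bax had −1.38 and −0.70. Without RANKL replicate 1, 5 members of the family were higher and 5 lower.

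Some relatives within a family were called in opposite directions. The 14 pairs shown here were chosen after their values were seen and carry no test as pairs. Nrp2 and Nrp1, the neuropilins, had 247 and 229 FPKM and 4.45 and 4.62 FPKM with RANKL, against 48.4 and 44.6 FPKM and 134 and 121 FPKM without RANKL, so the more abundant of the 2 was Nrp2 with RANKL and Nrp1 without RANKL. Siglec1, the macrophage sialoadhesin, fell to 5.11 and 4.97 FPKM with RANKL, against 101 and 89.0 FPKM without RANKL, where Siglec15 rose. Rasgrp1 reached 12.2 and 11 FPKM with RANKL, against 0.041 and 0.065 FPKM without RANKL, while Rasgrp3 had 0.054 and 0.028 FPKM with RANKL and 1.49 and 1.44 FPKM without RANKL. Rac2 had 192 and 164 FPKM with RANKL, against 49.1 and 53.8 FPKM without RANKL, while Rac3 had 0.568 and 0.746 FPKM with RANKL, against 5.21 and 8.01 FPKM without RANKL. The remaining pairs are the tetraspanins Cd82 and Cd81, the calcium channels Orai2 and Orai1, the hexokinases Hk1 and Hk3, the annexins Anxa1 and Anxa3, the galectins Lgals3 and Lgals1, the clock repressors Bhlhe40 and Bhlhe41, the DNA methyltransferases Dnmt3a and Dnmt1, the tubulins Tubb6 and Tubb2a, and the integrin and proton pump pairs given above. In each of them the first named was called higher and the second lower, with log2 fold changes between 0.77 and 6.23 for the first and between −2.45 and −0.80 for the second.

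**Figure D5:**
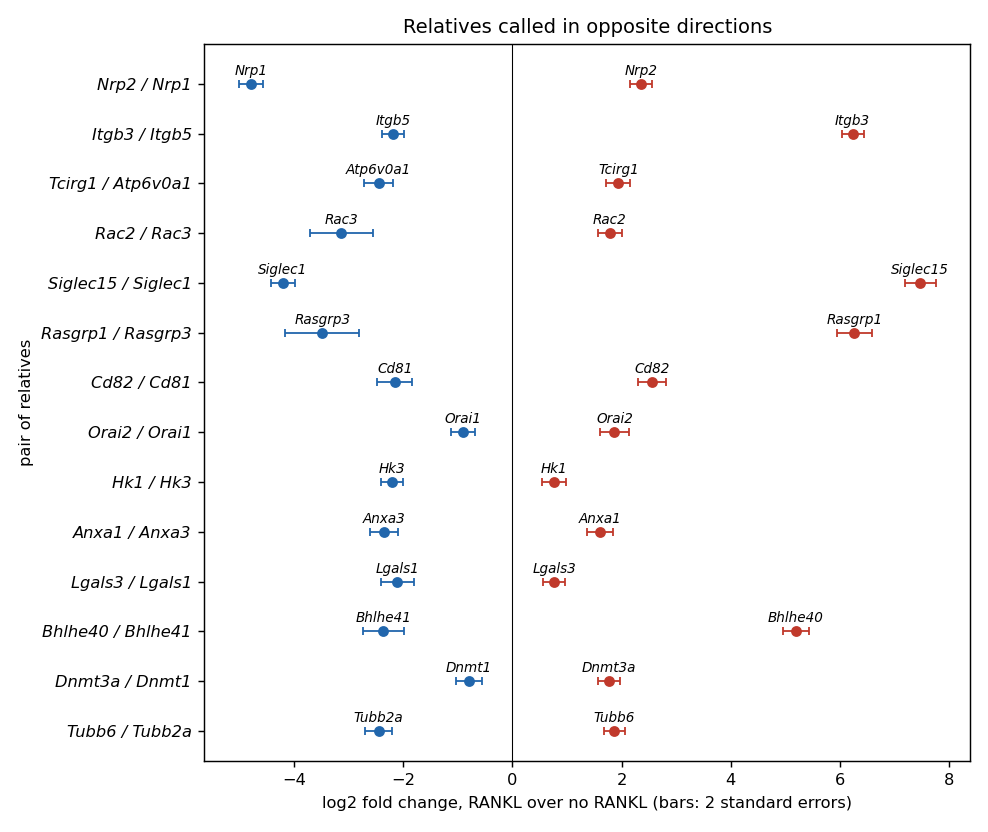
Log2 fold change (RANKL over no RANKL) of both genes of 14 pairs of relatives, with bars of 2 standard errors, red where called higher and blue where called lower. No bar reaches 0, and the largest distances are those of Siglec15 and Siglec1 and of Rasgrp1 and Rasgrp3.

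The genes that did not pass the test include some of the most abundant. The elongation factor Eef1a1 had 3289 and 3045 FPKM with RANKL and 2708 and 2814 FPKM without RANKL, and β-actin (Actb) had 1506 and 1318 FPKM with RANKL and 2033 and 2167 FPKM without RANKL, with an adjusted p of 0.06 in the limma fit. The macrophage marker Cd68 had 616 and 583 FPKM with RANKL and 515 and 568 FPKM without RANKL. In the proteasome, 3 of 48 genes were higher and 1 lower, and among the SRSF and hnRNP splicing factors 2 of 30 were higher and 0 lower, both below the 17.8% of all genes. A p that misses the threshold does not show that such genes were equal in the 2 groups.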

How the data were processed

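RNA of cultured mouse BMMs was sequenced in 6 libraries, 2 each with RANKL, with RANKL and LEA, and without RANKL. According to the methods and the submitters' processing notes, the authors aligned reads with HISAT2 to mm10, counted reads on exons of 1 RefSeq transcript per gene with HOMER on both strands, and deposited FPKM values. The sources used here name no version of these tools and no annotation release. DESeq2 was used by the authors for their own gene lists, which the deposited table also holds and which were not used here. The labels and the methods differ in the mouse strain and in the RNA and library kits. In the deposited table, 26 genes carry a date in place of a symbol and 410 lie in more than 1 genomic copy.

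Genes that reached 0.5 FPKM in 2 or more of the 6 libraries were tested on log2(FPKM + 0.1) with limma 3.58.1 in R 4.3.3 (linear model over 3 groups, empirical Bayes with an intensity trend, 3 residual degrees of freedom, 2-sided, Benjamini-Hochberg adjustment over all genes tested). Calls required an adjusted p below 0.05 together with a difference of 1.5-fold or more. Whole reads were recovered from the steps between low FPKM values and gave the depth of each library. Floors of 3 reads per library cover counting error only. Summaries and plots used Python 3.11.15, pandas 2.3.3, numpy 2.4.6 and matplotlib 3.10.9.

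Gene lists were drawn up from pathway knowledge, and the genes, lists and tests were chosen with earlier results of these data known. A member under 0.5 FPKM in both libraries of 1 group passed the filter only through other libraries, which can largely set its direction. Genes were named where they had one of the 15 largest increases or decreases, one of the 10 highest levels in either group or one of the 10 highest levels among genes switched on or off, and, per list, up to 6 called members with the smallest p, up to 3 called members that went against the larger direction and up to 3 uncalled members with the highest level, as well as the 8 most abundant uncalled genes. Ctsb, Pkm, Ppargc1b, Lgals3, Orai1 and Rac3 were named after their values were seen, as were members of the BCL2 family beyond those that the rules take in. Some genes and lists that these rules take in are not reported here. Alternatives covered the pseudocount, filter, scaling, libraries in the fit, the replicate block, the trend, voom on recovered reads, the fold limit and each library left out. Replicate numbers were not taken to pair the libraries, since the labels tie them to no shared source and the deviations of same-numbered libraries correlated at −0.0795 (RANKL and no RANKL), 0.123 (RANKL and RANKL with LEA) and −0.255 (RANKL with LEA and no RANKL).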

Additional observations from a re-analysis of the deposited data

How the results depend on the processing

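The limit on fold change moved the counts of called genes most. At a limit of 2-fold, 1178 genes were higher and 1212 lower, and with no fold limit 2979 were higher and 2891 lower. Pseudocounts of 0.5 and 1 gave 1981 and 1798 genes higher and 1993 and 1758 lower, no level filter 2322 higher and 2255 lower, quantile normalization 2057 and 2141, and voom on recovered reads 2214 and 2106. With a replicate block, 2128 genes were higher and 2115 lower. With 1 library left out, 1828 to 2229 genes were higher and 1802 to 2289 lower, where the lone library of a group is assumed to vary like the others. Genes below 0.1 FPKM in both RANKL libraries and above the upper limit without RANKL numbered 4 at an upper limit of 2 FPKM, and with a lower limit of 0.05 FPKM they numbered 5. Of 158 named called genes that were followed, 144 kept their call under all 18 alternatives, 14 lost it under at least 1, in most cases the 2-fold limit, and 0 changed direction. Some genes given beside their list were not followed, among them Atp6v0d1, Bcl2a1a, Bcl2a1b, Bcl2a1d, Mcl1, Bcl2, Bok, Bcl2l11, Bid and Bax. Of these, the called Mcl1, Bcl2a1d, Bcl2l11 and Bax lay under the 2-fold limit. Of 11 named uncalled genes that were followed, 3 were called under at least 1 alternative. These were Tnfrsf11a with no fold limit and without RANKL replicate 2, and Eef1a1 and Rn45s under quantile normalization. With 1 library left out, the uncalled Cd9 had log2 fold changes between −0.06 (without no RANKL replicate 1) and 0.24 (without no RANKL replicate 2), and Cd68 had −0.04 under quantile normalization. Over 46 lists, 81 of 1656 counts moved by more than 1.5 times. The larger direction was lost in the costimulatory list (5 higher and 5 lower at pseudocounts of 0.5 and 1, with no filter, and without RANKL replicate 1 or no RANKL replicate 1), amino acid transporters (9 and 9 without RANKL replicate 1), the proteasome (2 and 2 without no RANKL replicate 1) and the splicing factors (0 and 1 without RANKL replicate 1, 1 and 1 without no RANKL replicate 1), and no cytosolic ribosomal protein was called at the 2-fold limit or under quantile normalization. The cause of these changes was not tested.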
